A study of Mus musculus with 3 samples.

Results

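Metallothioneins and zinc transporters set how much free zinc a cell holds, and 7 of their genes were followed here through ischemia and reperfusion of the mouse liver. They are the metallothioneins Mt1 and Mt2, the transcription factor Mtf1, the zinc importers Slc39a14 and Slc39a4, and the exporters Slc30a1 and Slc30a10. The genes were taken by symbol from the deposited tables, where all 7 were found among 23361 genes. The study compared 3 mRNA libraries, 1 for each group of C57BL/6J mice, which the labels give as males of 8 to 10 weeks. All groups had fasted for 12 h and had a laparotomy. In the sham group no vessel was closed and the liver was taken after 90 min. In the warm ischemia (WI) group the vessels to the left and median lobes, 70% of the liver, were clamped for 90 min. In the ischemia followed by reperfusion (IR) group the same clamping of 90 min was followed by 120 min of restored flow. No sham sample matches the IR sample in time, so reperfusion and the added time after surgery cannot be told apart. The study describes 6 mice per group and does not say how many of them gave RNA to each library.

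Metallothioneins are small cysteine-rich proteins that bind zinc and copper in the cytosol and release them again. Their genes are switched on by metal-regulatory transcription factor 1 (MTF-1, from Mtf1), which senses free zinc and binds short metal response elements, and they also answer to glucocorticoids, to inflammatory cytokines and to oxidative stress. Transporters of the ZIP family (Slc39a genes) bring zinc into the cytosol and those of the ZnT family (Slc30a genes) take it out. The liver is known for the strong induction of metallothioneins and of Slc39a14 during the acute phase, when zinc moves from the blood into hepatocytes.

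Values are FPKM, fragments scaled to transcript length and to the mapped fragments of the library, each with the 95% bounds that the authors' program gave. With 1 library per group these bounds do not measure the variation between mice of a group, and no test between the groups was possible. Which sources of error the program counted in the bounds was not tested. Over the genes used, the bounds reached a median of 51.4% to 51.5% of the FPKM to either side. For Mt1 they reached 60.7%, 53.6% and 78.2% in the sham, WI and IR libraries. Differences are log2 ratios of FPKM + 1, a scale which understates those of genes with low FPKM. A gene was counted as changed where FPKM + 1 differed at least 2-fold, over the 10792 genes that reached an FPKM of 1 in any library, a filter that all 7 genes passed.

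The libraries did not all carry the sex given in the labels. The summed FPKM of 4 genes of the Y chromosome was 0 in the sham liver, 0.00849 in the ischemic liver and 23.7 in the reperfused liver. Xist, transcribed from an inactive X chromosome, was at 18.9 and 20.2 in the sham and WI samples and at 1.29 in the IR sample. The sham and WI libraries thus go against the label of male mice, and in both comparisons with the IR sample a difference in sex cannot be told apart from reperfusion. The comparison of WI with sham is free of this split. The hepatocyte markers matched the labelled tissue, with a summed FPKM of 19596, 18162 and 23364 in the sham, WI and IR samples. Alb was listed at 0 in each library because the locus held too many fragments for the program.

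Mt1 and Mt2 lie on chromosome 8 of mm10, Mt2 from 94172618 to 94173567 and Mt1 from 94179089 to 94180327, with 5522 bases from the end of Mt2 to the start of Mt1. The promoters of Mt2, Slc30a10 and Mtf1 are shown because these genes cover the range of what follows: Mt2 had the widest differences, Slc30a10 was the transporter whose sham and IR bounds did not overlap, and Mtf1 encodes the factor that binds the element searched for. Each line gives the 250 bases before the start of the gene in RefSeq, on the plus strand of GRCm38.p6. Capitals mark the core of the metal response element, TGCACNC or TGCGCNC, on either strand. The windows are chr8:94172368-94172617, chr1:185454598-185454847 and chr4:124802299-124802548 in that order.
Mt2: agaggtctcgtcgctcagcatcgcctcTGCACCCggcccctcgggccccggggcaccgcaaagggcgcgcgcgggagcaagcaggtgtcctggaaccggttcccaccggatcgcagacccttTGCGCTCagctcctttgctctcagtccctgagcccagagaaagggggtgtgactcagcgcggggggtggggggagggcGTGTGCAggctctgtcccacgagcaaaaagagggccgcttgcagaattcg
Slc30a10: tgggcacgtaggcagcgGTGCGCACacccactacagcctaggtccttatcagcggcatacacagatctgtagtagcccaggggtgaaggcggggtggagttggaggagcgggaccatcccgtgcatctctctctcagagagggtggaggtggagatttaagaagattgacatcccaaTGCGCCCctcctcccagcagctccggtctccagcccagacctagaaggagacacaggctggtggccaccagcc
Mtf1: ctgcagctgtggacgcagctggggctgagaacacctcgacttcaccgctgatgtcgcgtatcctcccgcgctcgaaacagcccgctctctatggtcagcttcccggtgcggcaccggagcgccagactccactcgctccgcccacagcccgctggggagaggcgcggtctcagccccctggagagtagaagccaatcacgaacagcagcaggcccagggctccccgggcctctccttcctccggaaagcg

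In the whole windows of 300 bases, which run from 250 bases before to 50 after the start used in the RefSeq promoter table, the metal response element core occurred 3 times for Mt1, 4 times for Mt2 and 2 times for Slc30a1. Of these, 2 matches of Mt1 and 1 each of Mt2 and Slc30a1 lie after that start. For Mt1 and Slc30a1 the RefSeq gene begins further upstream, at 94178883 on chromosome 8 and 191906697 on chromosome 1, inside their windows. Part of each of these windows is thus not upstream of the gene, and they are not printed. All matches found in them, of any motif, lie after the beginning of the RefSeq gene. The promoter of Slc30a10 held 3 matches, a pair of which share letters on opposite strands, and that of Mtf1 held 0. Of 32851 RefSeq windows of this length, 25.7% held at least 1 match and 1.97% held 3 or more. The antioxidant response element core, TGACNNNGC, had 1 match in each of Mt2 and Slc30a1, against 12.4% of all windows with a match, and it overlapped none of the metal response element cores. The STAT site TTCNNNGAA (8.3% of all windows) and the E box CACGTG (7.15%) had 0 matches in the 5 windows found. Windows were found for 5 of the 7 genes. A match is a string of letters and was not tested as a site of binding.

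**Figure D1:**
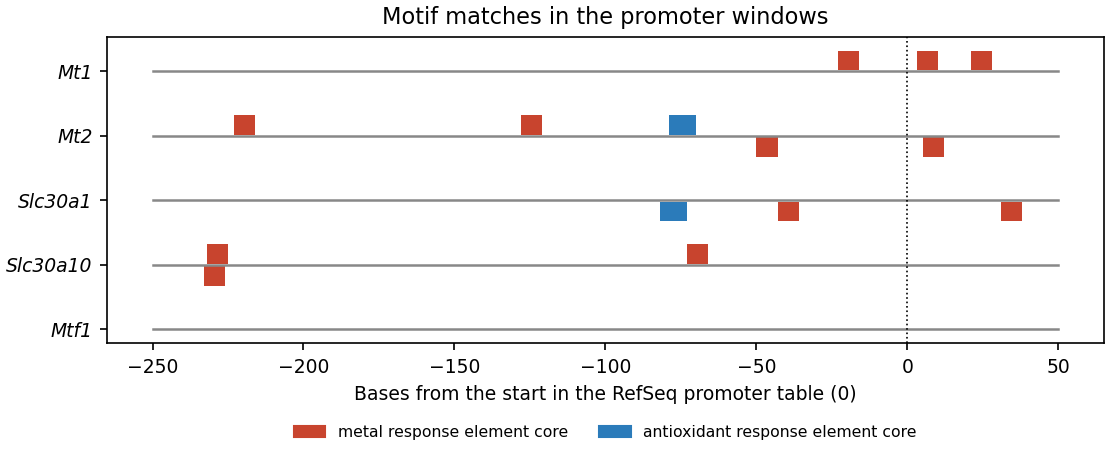
Matches of 2 motifs in the promoter windows of 5 genes, plotted by distance in bases from the start used in the RefSeq promoter table. Boxes above a line are matches on the strand of the gene and boxes below it on the other strand. Red boxes number 3 for Mt1, 4 for Mt2, 2 for Slc30a1, 3 for Slc30a10 and 0 for Mtf1.

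The metallothioneins were by far the most abundant of the 7 mRNAs in every library. Mt1 was measured at an FPKM of 1829 in the sham liver (95% bounds 718 and 2939.9), 788 in the ischemic liver (366 and 1210.5) and 5558 in the reperfused liver (1212 and 9904). Mt2 was measured at an FPKM of 1493 in the sham liver (637 and 2349), 359 in the ischemic liver (186 and 533) and 4713 in the reperfused liver (1285 and 8139.9). Both mRNAs were thus lowest after ischemia and highest after reperfusion. Counted from the most abundant gene with a value, Mt1 stood at place 33, 87 and 21 in the sham, WI and IR samples, and Mt2 at place 46, 221 and 23. Together they took 0.698% of the summed FPKM in the sham liver, 0.235% in the ischemic liver and 1.44% in the reperfused liver. Genes above the program's limit, 1, 1 and 7 in the sham, WI and IR samples, are listed at 0. Those genes are thus left out of the places and of the shares.

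The metallothioneins were the 2 genes of the 7 past the 2-fold threshold for WI against sham, and both were lower after ischemia. Mt2 was lower by a difference of -2.05 on the log2 scale, a ratio of 0.241 between the FPKM values. Its bounds in the WI and sham samples did not overlap, and taken at their extremes they allow ratios from 0.0790 to 0.836. Mt1 differed by -1.21, a ratio of 0.431, and its bounds overlapped, allowing ratios from 0.124 to 1.68. Of all 10792 genes, 1.10% were at least 2-fold lower in the WI sample, 0.751% were at least 2-fold higher, and 0.676% had bounds that did not overlap. The other 5 genes differed by -0.25 to 0.47, against a median of 0.02 over all genes.

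Markers of other liver cell types also differed between the WI and sham samples. The Kupffer cell and macrophage markers were lower in 7 of 7 genes, 1 of them past 2-fold, with a summed FPKM of 294 in the sham sample and 164 in the WI sample. The sinusoidal endothelial markers were lower in 7 of 7 genes, 1 of them (Lyve1) past 2-fold, with sums of 139 and 99.9. Of all 10792 genes, 1.10% were at least 2-fold lower, and 5107 were lower by any amount. No marker of either list was at 0. The summed hepatocyte markers went from 19596 to 18162. In such bulk tissue, fewer cells of a type and less RNA per cell cannot be told apart, and the part of these cells in the metallothionein result was not tested.

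Between IR and WI, 3 of the 7 genes were at least 2-fold higher after reperfusion and 0 were lower. Mt2 was higher by 3.71 on the log2 scale, a ratio of 13.1, and its bounds allow ratios from 2.41 to 43.9. Mt1 was higher by 2.82, a ratio of 7.05, and its bounds were only just apart, allowing ratios from just above 1 to 27.1. Slc39a14, which encodes the importer ZIP14 of zinc, iron and manganese, was higher by 1.66, a ratio of 3.22. In this comparison 5.78% of all genes were at least 2-fold higher, 1.43% were at least 2-fold lower, and the bounds of 3.61% did not overlap. Mt1 and Mt2 were the genes of the 7 whose bounds did not overlap.

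**Figure D2:**
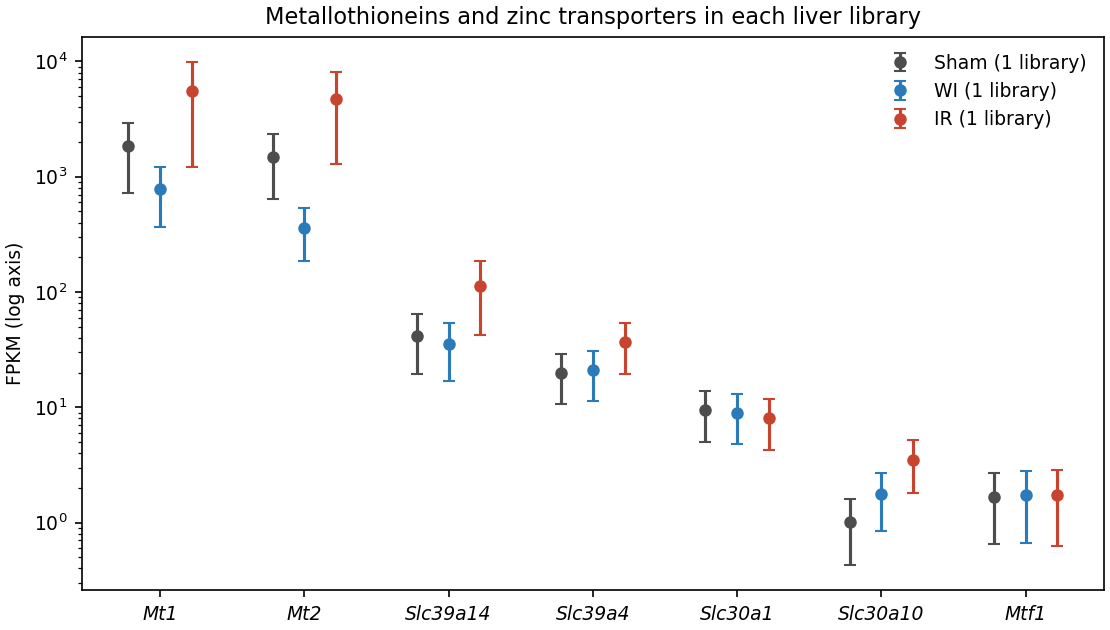
FPKM of the 7 genes on a log axis in the sham, WI and IR libraries, 1 point per library, with bars for the deposited 95% bounds. Mt1 and Mt2 were lowest in the WI sample and highest in the IR sample, while Mtf1 stayed between 1.66 and 1.75.

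Against the sham sample, 4 of the 7 genes were at least 2-fold higher in the IR sample and 0 were lower. The differences were 1.60 for Mt1, 1.66 for Mt2, 1.41 for Slc39a14 and 1.17 for Slc30a10 on the log2 scale. The bounds of Mt1 allow ratios of IR to sham from 0.412 to 13.8 and those of Mt2 from 0.547 to 12.8, so both overlapped. Of the 7 genes, Slc30a10 was the one whose bounds were apart. Among all genes 5.35% were at least 2-fold higher, 2.15% were at least 2-fold lower, and 3.82% had bounds that did not overlap. These values share the IR sample with the comparison above and the sham sample with the first one, so the comparisons are not independent of each other.

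The reading of the IR library also depends on scale, since its FPKM values summed to 712423 against 487912 in the WI sample and 475754 in the sham sample. Rescaling each library to the same sum (TPM) moved the median difference of all genes from 0.03 to -0.45 between IR and WI, and from 0.05 to -0.45 between IR and sham. On that scale 385 genes were at least 2-fold higher and 1185 lower in IR than in WI, where the deposited scale gave 624 and 154. Against sham, the same split was 319 higher and 1554 lower, where the deposited scale gave 577 and 232. As shares of all genes, the rescaled calls were 3.57% higher and 11.0% lower for IR against WI, 2.96% and 14.4% for IR against sham, and 0.880% and 1.68% for WI against sham. Relative to the shifted median, Mt1 was higher in IR than in WI by 2.73, Mt2 by 3.62 and Slc39a14 by 1.59. On the same measure, IR was above sham by 1.48 for Mt1, 1.53 for Mt2, 1.30 for Slc39a14 and 1.38 for Slc30a10. Without that correction, Mt1 and Mt2 were higher in IR than in sham by 1.02 and 1.08, only just past the 2-fold threshold. Slc39a14 and Slc30a10 were then higher by 0.84 and 0.92, under the 2-fold threshold. The sums used for this rescaling leave out the genes above the program's limit, 1, 1 and 7 in the sham, WI and IR samples. How far their absence moved the rescaled values was not tested.

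The relation of the 2 metallothioneins to each other does not depend on how libraries are scaled. The FPKM of Mt2 was 0.816 times that of Mt1 in the sham liver, 0.456 times in the ischemic liver and 0.848 times in the reperfused liver. The bounds allow ratios from 0.217 to 3.27, from 0.153 to 1.46 and from 0.130 to 6.71, so the lower ratio in the WI sample was within the error of the values. Their transcripts in the GENCODE M1 annotation, of 631 and 556 bases, share no stretch longer than 20 bases.

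Markers of other cell types set the IR library apart from the other 2 libraries. The 8 neutrophil markers found had a summed FPKM of 25.7, 19.5 and 462 in the sham, WI and IR samples. Cxcr2 and Ngp passed the filter through the IR library alone, so a difference was fixed for them. The 4 markers that also passed it in another library were S100a8, S100a9, Csf3r and Retnlg. All 4 were at least 2-fold higher than in WI, where 5.78% of all genes were. Mpo was at 0 and Elane at 0.118 in the IR sample. The 5 erythroid genes were at least 2-fold higher than in WI and in sham, where 5.78% and 5.35% of all genes were. Their sums were 751, 518 and 1976. They are not 5 separate measurements, since Hba-a1 and Hba-a2 share a locus in the files, as do Hbb-b1 and Hbb-b2, and the program split the fragments between them. After rescaling to a common sum, 4 of the 5 were past 2-fold against WI and 1 (Alas2) against sham, where 3.57% and 2.96% of all genes were. Kupffer cell and macrophage markers summed to 106. Against WI, 2 of 7 were at least 2-fold lower, and 5 of 7 after the rescaling, where 1.43% and 11.0% of all genes were. Marco and Cd68 were higher than in WI on the deposited scale, by 0.96 and 0.55. Against sham, 5 of 7 were at least 2-fold lower on both scales, where 2.15% and 14.4% of all genes were. The part of these cells in the higher Mt1, Mt2 and Slc39a14 was not tested.

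The importer Slc39a14 lies on chromosome 14 from 70303467 to 70351424. It was measured at an FPKM of 41.9 in the sham liver (19.3 and 64.5), 35.2 in the ischemic liver (17.0 and 53.4) and 113 in the reperfused liver (42.5 and 184). The IR value stood apart from the other two, but its bounds overlapped with both. It was the highest of the 14 ZIP genes in each of the 3 libraries, where its bounds overlapped with those of the next gene, Slc39a1. Slc39a4 encodes ZIP4, best known as the zinc importer of the gut, and lies on chromosome 15 from 76612383 to 76616852. It was measured at an FPKM of 19.9 in the sham liver (10.7 and 29.2), 20.9 in the ischemic liver (11.2 and 30.6) and 36.9 in the reperfused liver (19.5 and 54.2). Its difference between IR and WI was 0.79, under 2-fold, with overlapping bounds. Of the enterocyte markers Lct and Sis were at or near 0 and Vil1 did not exceed 0.11, while Fabp2, which passed the filter, had an FPKM of 46.6, 43.8 and 63.6 in the sham, WI and IR samples.

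The exporter Slc30a1 encodes ZnT1, which carries zinc out through the plasma membrane and is a known target of MTF-1. Its FPKM was 9.40 in the sham liver (5.05 and 13.8), 8.94 in the ischemic liver (4.79 and 13.1) and 8.04 in the reperfused liver (4.25 and 11.8). It did not follow the metallothioneins, with differences of -0.07 between WI and sham and -0.14 between IR and WI. Between IR and WI, its bounds allow ratios from 0.325 to 2.47, so changes within that range were not detectable. The files give it one locus with 1700034H15Rik on chromosome 1, from 191894072 to 191913247, and that neighbour had an FPKM of at most 0.0239.

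Slc30a10 encodes ZnT10, which exports manganese in the liver. It was low in every library, with an FPKM of 1.01 in the sham liver (0.429 and 1.59), 1.78 in the ischemic liver (0.843 and 2.72) and 3.50 in the reperfused liver (1.80 and 5.21). The values stood in the order sham, WI, IR, and only the sham and IR bounds were apart, allowing ratios from 1.13 to 12.2. It shares a locus on chromosome 1, from 185447116 to 185468761, with Gm2061, whose FPKM was at most 0.290. The libraries are not stated to keep strand, so reads of such neighbours cannot be told apart where they overlap.

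Mtf1, the activator of the metallothionein genes, had nearly the same FPKM in the 3 libraries. Its FPKM was 1.66 in the sham liver (0.653 and 2.67), 1.75 in the ischemic liver (0.665 and 2.83) and 1.73 in the reperfused liver (0.631 and 2.83). The differences were 0.05 between WI and sham, and -0.01 between IR and WI, on the log2 scale. After rescaling to a common sum the second was -0.42, against -0.45 for the median of all genes, and the difference between IR and sham went from 0.04 to -0.39. Between IR and WI, the bounds allow ratios of Mtf1 from 0.223 to 4.26. Mtf1 shares its locus on chromosome 4, from 124802549 to 124850730, with 1110065P20Rik, which was more abundant, at 12.8, 14.5 and 16.5 in the sham, WI and IR samples.

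The order of the 7 genes by FPKM was nearly the same in each library. Mt1 and Mt2 came first and their bounds overlapped, followed at a distance beyond the bounds by Slc39a14, then Slc39a4 and Slc30a1. Slc39a14 and Slc39a4 overlapped in each library, and Slc39a4 and Slc30a1 in the sham and WI samples but not in the IR sample. Slc30a10 and Mtf1 took the last places, with overlapping bounds throughout.

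The rest of both transporter families stayed under the 2-fold threshold in FPKM + 1. Of the 12 other ZIP genes, 8 passed the filter, and 0 of them changed at least 2-fold in any of the 3 comparisons. Their median difference was 0.13 for WI against sham, 0.10 for IR against WI and 0.16 for IR against sham. Of the 8 other ZnT genes, 5 passed the filter and 0 changed at least 2-fold, with medians of 0.03, -0.04 and -0.01 in the same order, while those of all genes were 0.02, 0.03 and 0.05. After rescaling to a common sum, Slc39a9 and Slc30a9 were each at least 2-fold lower in IR than in WI and in sham, while the medians of both lists lay within 0.12 of that of all genes. Slc30a5, which loads zinc into the secretory pathway, came nearest, with a difference of 0.96 between IR and sham. Without the added 1 its ratio was 2.03, past 2-fold, and its bounds overlapped. Of the other genes of both lists that passed the filter, 0 were past 2-fold on that scale. The metallothioneins Mt3 and Mt4, known from brain and from stratified epithelia, had an FPKM of at most 0.24 and 0.37 and did not pass the filter. The 14 ZIP genes together summed to 146, 149 and 259 in the sham, WI and IR samples, and the 10 ZnT genes to 46.5, 49.0 and 52.6.

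**Figure D3:**
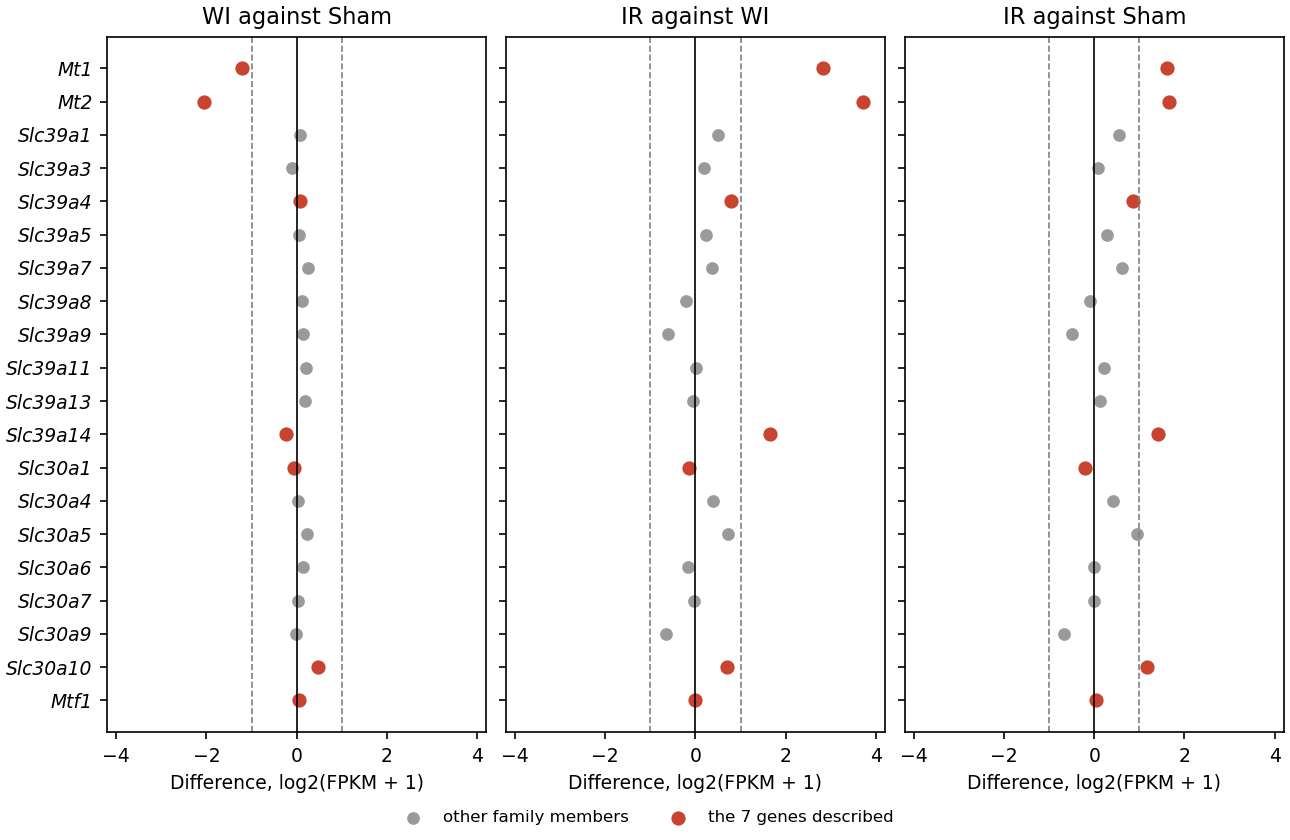
Difference in log2(FPKM + 1) for each metallothionein, ZIP and ZnT gene past the filter and for Mtf1, in each of the 3 comparisons, with dashed lines at 2-fold. Mt1 and Mt2 lie left of the line in WI against sham, and Slc39a14 joins them right of it in both comparisons with the IR sample, as does Slc30a10 against sham.

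Genes of copper handling, the other metal that metallothioneins bind, were followed as a list of 11. Between WI and sham 0 of them changed at least 2-fold, and their median difference was 0.11. Between IR and WI, 1 was higher and 0 were lower, with a median of -0.16, where 5.78% of all genes were higher. That gene was Sco2, which helps to insert copper into cytochrome c oxidase, at an FPKM of 24.6, 18.5 and 50.4 in the sham, WI and IR samples. After rescaling to a common sum Sco2 was under 2-fold, and Slc31a1, Atp7b and Cp were at least 2-fold lower, where 11.0% of all genes were. Another 8 genes are known or reported to respond to MTF-1, of which 7 passed the filter. Between WI and sham 0 of these changed at least 2-fold, with a median of -0.30, and between IR and WI 3 were higher and 0 lower, with a median of 0.82, where the shares of all genes were 5.78% and 1.43%. The 3 were Gclc, which makes the first step of glutathione synthesis, Hamp, the iron hormone hepcidin, and Ndrg1. Their differences were 1.19, 1.35 and 1.71. After rescaling to a common sum, Ndrg1 alone of the 3 was still at least 2-fold higher, where 3.57% of all genes were. Slc40a1 was then at least 2-fold lower, where 11.0% were. Against sham, these 3 were again higher, and the iron exporter Slc40a1 was lower by a difference of -1.57. Among all genes 5.35% were at least 2-fold higher and 2.15% lower. In this comparison 0 of the 7 had bounds apart, where 3.82% of all genes had. Between IR and WI 1 of the 7 (Ndrg1) had bounds apart, where 3.61% of all genes had. Libraries were also rescaled by the median ratio of genes between them. After either rescaling, Gclc was the one gene of the list at least 2-fold higher than in sham, and Slc40a1 was still lower.

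The genes closest to the metallothioneins in their pattern were sought by the pair of differences between WI and sham and between IR and WI. The mean pair of Mt1 and Mt2 was -1.63 and 3.26, and each lay 0.61 from it in straight-line distance, in log2 units. Of 10785 other genes, the nearest was Lyve1, a hyaluronan receptor of sinusoidal and lymphatic endothelium, at 0.09. It was followed by Gadd45g, a stress-inducible gene of the GADD45 family, at 0.17, and Rab30, a small GTPase of the Golgi, at 0.19. Il1r1, the receptor of interleukin-1, lay at 0.21 and Gadd45b at 0.33. Lyve1 had an FPKM of 11.2, 2.73 and 33.4 in the sham, WI and IR samples. It is 1 of the 7 sinusoidal endothelial markers, whose median difference between IR and WI was -0.07. Of these markers 3 were higher and 4 lower in IR than in WI, and Lyve1 alone was past 2-fold. The likeness rests on 3 libraries, the WI library enters both differences, and the genes were picked for it, so it is a description only.

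**Figure D4:**
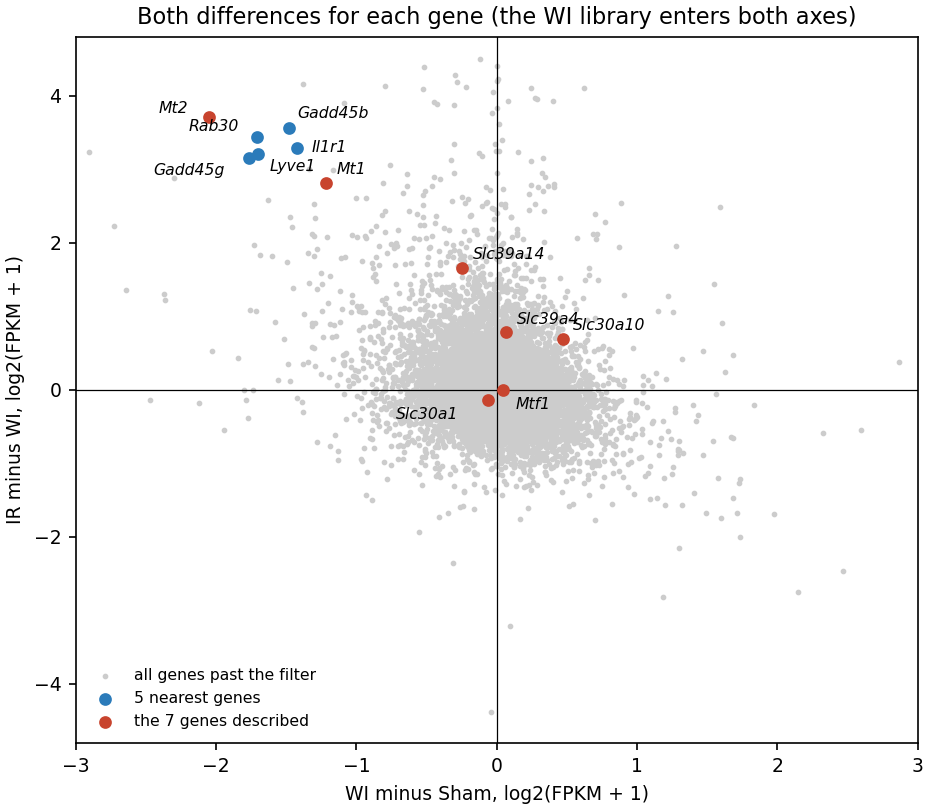
Each point is a gene past the filter, placed by its difference between WI and sham and its difference between IR and WI in log2(FPKM + 1). Mt1, Mt2 and their 5 nearest genes lie at the upper left, apart from the transporters and Mtf1, and 34 genes lie outside the plotted range.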

How the data were processed

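Liver RNA of 3 groups of mice was sequenced, 1 library per group, on an Illumina instrument. Per the study's methods and the submitters' processing notes, the authors mapped the reads to mm10 with TopHat2 2.0.9. They deposited FPKM per gene from Cuffdiff (Cufflinks 2.0.2) with lower and upper 95% bounds and a status. Counts are not part of these tables, so depth per gene is unknown. A gene above the program's limit is listed at 0 (1, 1 and 7 genes in the sham, WI and IR samples). All 7 genes had status OK.

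Genes were matched by symbol. Locus starts were counted from 1. Differences used log2(FPKM + 1) over genes reaching an FPKM of 1 in any library, with a 2-fold threshold. The genes and lists were chosen with earlier results of these data known. Named were the 7 genes, listed genes changed at least 2-fold, the highest of a family, and the 5 nearest in pattern. Others named (Slc30a5, Mt3, Mt4, single markers) were chosen after their values were seen. Markers covered hepatocytes, Kupffer cells, neutrophils, endothelial, stellate and biliary cells, lymphocytes, erythroid cells and enterocytes. List counts after rescaling or without a pseudocount were added after seeing the data. The code was checked on simulated data. Promoters came from RefSeq (GRCm38.p6, the assembly of mm10). Python 3.11.15, numpy 2.4.6, pandas 2.3.3 and matplotlib 3.10.9 were used.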

Additional observations from a re-analysis of the deposited data

How the results depend on the processing

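Of the recomputed counts of changed genes among the 7, 24 stayed within 1.5 times and 6 did not. With a threshold of 4-fold, 1 gene (Mt2) changed between WI and sham, and 0 between IR and sham. At 1.5-fold, 5 genes changed between IR and WI, with Slc39a4 and Slc30a10 added. With 2-fold and bounds apart, 1 gene (Mt2) was left between WI and sham and 1 (Slc30a10) between IR and sham. With FPKM rescaled to a common sum, which leaves out genes above the program's limit, 2 genes (Mt1 and Mt2) changed between IR and sham. Both were only just past the threshold. Each of the 105 recomputed differences of single genes stayed within the error given by the bounds. That error is wide, so this limit was hard to pass. For IR against sham, the difference of Slc30a10 went from 1.17 to 1.80 on the log2 scale without a pseudocount. The ratio of Mt2 to Mt1 was the same to 3 digits with either pseudocount, which their high FPKM fixed in advance. Among all genes, the 200, 778 and 809 changed genes (WI against sham, IR against WI, IR against sham) became 382, 1239 and 1429 with a pseudocount of 0.1, and 447, 1331 and 1505 with 0.01. They were 435, 1309 and 1480 without one, 276, 1570 and 1873 after rescaling to a common sum, 800, 2132 and 2572 at 1.5-fold, 24, 194 and 166 at 4-fold, and 67, 372 and 387 with bounds apart. List counts were redone, after seeing the data, under 2 rescalings (common sum and median ratio) or without a pseudocount. Of these counts, 76 stayed within 1.5 times and 23 moved further. No library could be left out, and no paired analysis was possible because each group has 1 library. Without the IR library only the comparison of WI with sham is left.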

Other observations

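Genes of the other signals known to induce metallothioneins were followed as 3 further lists, and their part in the metallothionein values was not tested. All 10 genes of a list of glucocorticoid responsive genes were lower in WI than in sham, where 5107 of all 10792 genes were. Their median difference was -0.91 on the scale of log2(FPKM + 1), against 0.02 over all genes. The differences of 3 of the 10 were past 2-fold, where 1.10% of all genes were lower by as much. Fkbp5, a chaperone partner of the glucocorticoid receptor, had an FPKM of 72.4, 13.2 and 32.2 in the sham, WI and IR samples, Zbtb16, a transcription factor, 7.93, 1.64 and 4.61, and Cebpd, a transcription factor of the acute phase, 9.64, 3.20 and 32.8. From WI to IR, 3 of the 10 (Fkbp5, Zbtb16 and Cebpd) were at least 2-fold higher, where 5.78% of all genes were, and the median was 0.65. Against sham, 1 was at least 2-fold higher in the IR sample and 2 were lower (Fkbp5 and Sgk1), where the shares of all genes were 5.35% and 2.15%, with a median of -0.40. After rescaling to a common sum, 5 of the 10 were at least 2-fold lower in WI than in sham (Sgk1 and Tat added), where 1.68% of all genes were. On that scale 1 (Cebpd) was at least 2-fold higher in IR than in WI, where 3.57% of all genes were. Against sham, 1 (Cebpd) was at least 2-fold higher and 5 were lower in the IR sample, where the shares of all genes were 2.96% and 14.4%.

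Of 14 genes responsive to interleukin-6 and STAT3, 0 were at least 2-fold higher and 2 were lower (Saa1 and Saa2, acute phase proteins) in WI against sham, with a median of 0.16, where the shares of all genes were 0.751% and 1.10%. Saa1 and Saa2 are near-identical copies whose fragments the program may have split. In IR against WI, 11 of 14 were at least 2-fold higher, where 5.78% of all genes were, with a median of 1.32. The bounds of 4 of the 14 were apart, where those of 3.61% of all genes were. The largest difference was 4.11 for Socs3, an inhibitor of cytokine signaling. After rescaling to a common sum 5 of 14 were still past 2-fold (Socs3, Saa2, Osmr, Junb and Pim1), where 3.57% of all genes were. Against sham, 9 of 14 were at least 2-fold higher in IR and 1 (Il6ra) was lower, where 5.35% and 2.15% of all genes were. After rescaling to a common sum these were 3 higher and 1 lower, where 2.96% and 14.4% of all genes were. Of 9 genes responsive to NRF2, the regulator of antioxidant genes, 8 passed the filter, 4 of them at least 2-fold higher in IR than in WI (Hmox1, Gclc, Txnrd1 and Srxn1), where 5.78% of all genes were, with a median of 0.54, and 2 of the 4 (Hmox1 and Srxn1) after that rescaling, where 3.57% of all genes were. Hamp and Gclc also stand in the list of MTF-1 responsive genes, and Slc39a10 stands both there and among the ZIP genes. Among the remaining marker lists, the 6 stellate markers had a median of 0.04 in IR against WI, where that of all genes was 0.03. One of them, Lrat, was at least 2-fold lower, where 1.43% of all genes were. The 4 biliary (cholangiocyte) markers past the filter had a median of 0.60. Of these, Sox9 alone was past 2-fold, and it passed the filter through the IR library alone, so a difference was fixed for it. Of 6 lymphocyte markers, 3 passed the filter, with a median of -0.80. These lists hold few genes, and each value comes from 1 library per group.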
